A study of Mus musculus with 9 samples.

Results

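The negative elongation factor (NELF) complex has 4 subunit genes in the mouse, Nelfa, Nelfb, Nelfcd and Nelfe. They were selected by symbol alone from the 32285 genes of the single-cell RNA-seq matrices of 9 testes, and the unique molecular identifiers (UMIs) of each were summed per mouse and cell type. Each of the 4 genes passed the filter on low counts in every comparison made. Testes were taken on postnatal day (PND) 24 from C57BL/6 mice (C57BL/6 J background per the study's methods), with 1 library per mouse. There were 4 control mice (littermates or non-littermates, which the study calls wild type), 2 mice with NELF-B cKO and 3 with TDP-43 cKO. Every cKO mouse carried 1 floxed and 1 null allele of its target (F/-) and the Stra8-iCre transgene, which is active in spermatogonia (SG). Recombination removes exons 1 to 4 of Nelfb in the first line and exon 3 of Tardbp, the gene of the RNA-binding protein TDP-43, in the other. The null allele is present in every cell of a cKO mouse, somatic cells included, whereas the floxed allele is deleted in germ cells, some of which escape recombination at this age according to the study.

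NELF binds RNA polymerase II together with the factor DSIF and holds it in a paused state shortly after initiation, close to the promoter. The kinase P-TEFb then phosphorylates the polymerase, DSIF and NELF, and elongation resumes. NELF-A, from Nelfa, contacts the polymerase. NELF-B, from Nelfb, is a scaffold that joins the NELF-A and NELF-C/D lobe to NELF-E, whose RNA recognition motif binds nascent RNA, and NELF-C/D is encoded by Nelfcd. Male germ cells pass through pauses and bursts of transcription as SG become meiotic spermatocytes (SC) and then round spermatids (RS).

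In the GENCODE annotation of GRCm38 (mm10, the build of the deposited counts), Nelfb (ENSMUSG00000013465) lies on the minus strand at chr2:25199712-25211489 and has 8 annotated transcripts. The exons removed in the NELF-B cKO span chr2:25209854-25211489 and hold the start of the full-length transcript. The last exon, exon 13, lies at chr2:25199712-25200466, outside the deleted part, so 3′ tags of this gene do not by themselves show that the deleted exons were present. Of the 8 transcripts, 3 begin outside the deleted exons. They are the protein-coding Nelfb-202 at chr2:25200685-25203921 and the retained-intron transcripts Nelfb-204 and Nelfb-207. Of these 3, only Nelfb-204 is annotated as far as the last exon. Nelfcd (ENSMUSG00000016253) lies on the plus strand at chr2:174415804-174427502, Nelfa (ENSMUSG00000029111) on the minus strand at chr5:33897916-33936413 and Nelfe (ENSMUSG00000024369) on the plus strand at chr17:34850391-34856372. The 3′ end of Nelfa overlaps the convergent gene Nsd2 by 60 bases and that of Nelfcd overlaps Ctsz by 10 bases. The RefSeq promoter table of GRCm38.p6 held 2 of the 4 members, Nelfa and Nelfb. The Nelfb promoter is shown because it adjoins the deleted exons but is not part of them. It covers the 250 bases before the start, chr2:25211490-25211739, in the direction of transcription, with motif matches in capitals.
Nelfb promoter: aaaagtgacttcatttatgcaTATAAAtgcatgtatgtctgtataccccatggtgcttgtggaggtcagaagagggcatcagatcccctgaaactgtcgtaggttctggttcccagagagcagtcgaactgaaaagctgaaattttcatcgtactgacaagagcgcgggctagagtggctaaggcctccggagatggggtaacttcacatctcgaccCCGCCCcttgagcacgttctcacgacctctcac
The capitals mark a TATAAA match whose first base is 229 bases before the start and a GC box (GGGCGG, here on the other strand) at 33 bases. They do not overlap. Among 32851 promoters of the same length, 12.4% held TATAAA and 32.7% held GGGCGG on either strand. The corresponding Nelfa window overlaps the first exon of a longer GENCODE transcript, and its matches lie within that exon. It held GGGCGG 2 times and the YY1 core CCATNTTG 1 time, which occurred in 3.36% of promoters. Neither window held CCAAT, the NRF1 motif or the CRE core TGACG, which occurred in 33.8%, 3.74% and 17.8% of promoters. These are matches of letters and were not tested for binding.

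The libraries held 119203347 to 159407373 UMIs per mouse, and 45132 barcodes passed the filters, of which 27840 fell into clusters with a cell type name. Values are CPM, the counts of a gene per 1000000 UMIs of that cell type in that mouse, and a mouse was used for a cell type with at least 20 cells. Germ cells were SG, split into undifferentiated and differentiating, preleptotene to zygotene SC (pL/L/Z), pachytene SC (P), a cluster between pachytene and diplotene (P/D), diplotene SC (D) and RS. The germ cell and somatic names rest on markers, and the P/D cells were deep (a median of 87425 UMIs per cell), where doublets had not been removed. Free RNA, estimated from barcodes of 1 to 100 UMIs, made up 15.6% to 24.0% of the UMIs in SG of control mice, 7.86% and 14.7% in NELF-B cKO mice and 5.10% to 9.46% in TDP-43 cKO mice. Between 29.6% and 65.2% of the barcodes of a control mouse could be named, against 67.6% and 95.1% in NELF-B cKO mice and 96.0% to 99.4% in TDP-43 cKO mice. Pairs of libraries shared 1 to 24 barcodes, at most 0.355% of the smaller library. CPM are relative to all UMIs of the cells, so fewer molecules of a gene and more RNA of other genes cannot be told apart.

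In control testes, the 4 subunit genes did not follow 1 course through spermatogenesis. Nelfb and Nelfcd were high in SG and early meiosis and then declined, and Nelfa peaked in P. Nelfe had overlapping ranges in SG, pL/L/Z and P and lay below every SG value in D (86.5 to 118 CPM against 122 to 136). It lay above them in RS taken as a whole (151 to 185 CPM), a pool of clusters that differ, as given below. Nelfb was at 75.6, 63.7, 63.4 and 69.3 CPM in SG of the 4 control mice, at 73.0, 62.1, 62.6 and 67.1 in pL/L/Z, at 35.8, 36.5, 31.5 and 41.7 in P and at 6.35, 8.05, 5.57 and 6.42 in D. The SG and pL/L/Z ranges overlapped, and every P value lay below every pL/L/Z value and above every D value. In RS Nelfb was at 24.9, 9.54, 11.7 and 7.63 CPM, a range that overlapped D only through Control 4 and in which Control 1 stood highest.

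Nelfa was at 49.5, 45.8, 46.5 and 56.0 CPM in SG and at 60.2, 55.2, 54.0 and 55.2 in pL/L/Z. It reached 77.8, 71.6, 78.1 and 73.4 CPM in P, above every value of any other cell type in these mice. It then stood at 21.5, 29.1, 23.5 and 27.3 CPM in D and 8.24, 13.6, 10.5 and 8.91 in RS, its lowest level among germ cells, with no overlap between the P, D and RS ranges. Nelfcd was at 52.9, 52.7, 49.2 and 58.5 CPM in SG, at 55.4, 48.0, 55.5 and 56.7 in pL/L/Z and at 39.8, 37.1, 35.9 and 55.1 in P. It was at 12.3, 13, 12.7 and 16.7 CPM in D and at 7.74, 4.35, 8.82 and 6.00 in RS. Control 4 kept a P level of Nelfcd within the SG range, while the D and RS ranges lay apart from each other and below all earlier stages.

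Nelfe was at 136, 122, 134 and 125 CPM in SG, at 140, 121, 148 and 145 in pL/L/Z and at 178, 126, 162 and 157 in P. It was at 118, 86.5, 104 and 115 CPM in D and at 169, 151, 185 and 181 in RS. The RS values were all above the D and SG values and overlapped those of P. As a share of each mouse's own SG level, RS kept 133% ± 10.2 (SD, n = 4) of Nelfe, 21.2% ± 6.4 of Nelfa, 19.4% ± 9.56 of Nelfb and 12.8% ± 4.34 of Nelfcd. These RS values pool clusters 15 and 17, described below, and cluster 17 held most of the RS UMIs in each control mouse. Nelfe was at 199, 158, 199 and 186 CPM in cluster 17. In cluster 15 it was at 92.0, 67.5, 85.0 and 86.3 CPM, below every SG value.

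**Figure D1:**
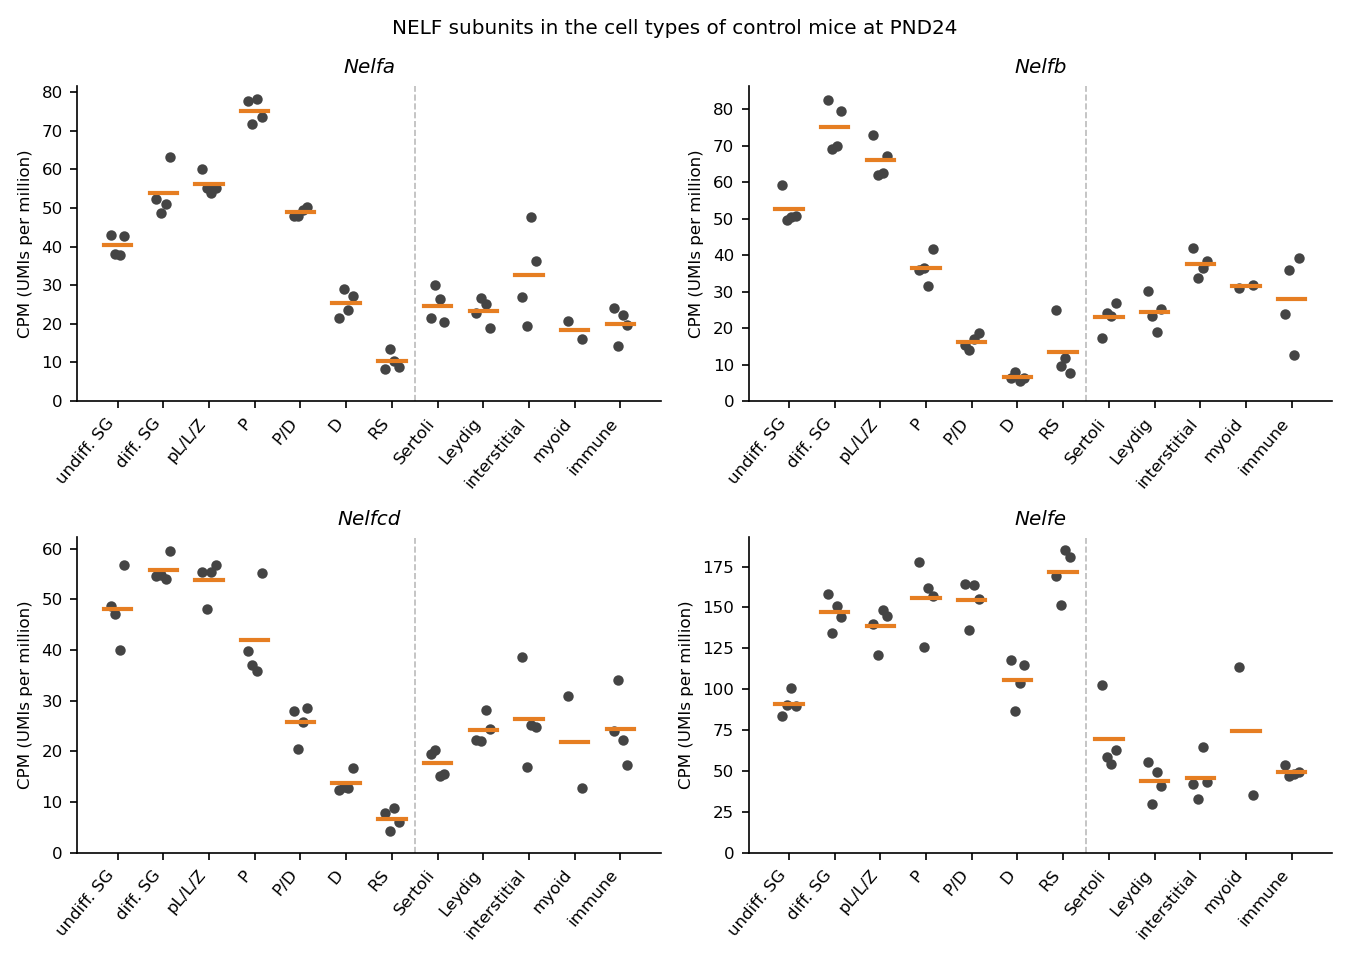
CPM (linear axis) of Nelfa, Nelfb, Nelfcd and Nelfe in 12 cell types of the control mice, with 1 point per mouse, orange bars at the mean and a dashed line between germ and somatic cells. Nelfa is highest in P, Nelfb falls from SG to D, Nelfcd is lowest in RS, and Nelfe has its highest mean in RS, with the RS clusters pooled.

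Steps between successive stages were tested with edgeR's quasi-likelihood test with Benjamini-Hochberg adjustment over all genes, with the mouse as a block. Large shares of all genes pass in such comparisons, and the members are read against that background. From SG to pL/L/Z 54.8% of genes were called and none of the 4 members was; none had an unadjusted p under 0.05, and the log2 changes ran from -0.01 (Nelfb) to 0.21 (Nelfa). At the finer clustering resolution of 1.4 the Nelfa change was 0.45 and was called. From pL/L/Z to P, with 61.9% of genes called, Nelfa rose by 0.61 on the log2 scale (SE 0.13, edgeR adjusted p = 8.54e-05) and Nelfe by 0.34 (SE 0.12, edgeR adjusted p = 0.0116), while Nelfb fell by 0.67 (SE 0.17, edgeR adjusted p = 0.000788). Nelfcd changed by -0.18 in that step and was not called (edgeR adjusted p = 0.274). From P to D, where 66.9% of genes were called, all 4 members fell. The log2 changes were -2.32 (SE 0.21) for Nelfb, -1.52 (SE 0.16) for Nelfcd, -1.47 (SE 0.14) for Nelfa and -0.48 (SE 0.12) for Nelfe. Control medians were 3364 to 9074.5 UMIs per cell in D and 28628 to 38351 in P, and the part of this depth was not tested. The Nelfe call was lost when DESeq2 was used (-0.02), when RLE factors replaced TMM (-0.01), with no filter on low counts (-0.26), when free RNA was subtracted (-0.22) and without Control 1 (-0.18).

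From D to RS, 56.5% of genes were called and the members divided. Nelfb rose by 1.11 (SE 0.22, edgeR adjusted p = 4.95e-05) and Nelfe by 0.95 (SE 0.12, edgeR adjusted p = 1.78e-08), whereas Nelfa fell by 1.08 (SE 0.15) and Nelfcd by 0.82 (SE 0.18, edgeR adjusted p = 0.000136). Without Control 1, the mouse with the highest Nelfb in RS, the Nelfb step was 0.83 and remained called. RS pooled clusters 15 and 17, in which the levels differed. Control Nelfb was at 27.2 to 65.5 CPM in cluster 15, above D (5.57 to 8.05). In cluster 17 it was at 6.39 to 9.46, overlapping D. Control Nelfe was at 158 to 199 CPM in cluster 17, above D (86.5 to 118). In cluster 15 it was at 67.5 to 92.0, overlapping D. Nelfa and Nelfcd overlapped D in cluster 15 as well. The clusters were not tested separately. With the P/D cluster placed between P and D, an alternative added after the data were seen, Nelfb was called lower in P/D than in P (-0.75, edgeR adjusted p = 0.000268) and Nelfe higher (0.40, edgeR adjusted p = 0.00338), where 53.4% of genes were called. The mean CPM of Nelfe was nearly the same in both, 155 ± 13.2 in P/D and 156 ± 21.8 in P (SD, n = 4), and its call was lost without Control 2 and at resolution 1.4 (0.11). From P/D to D, 56.1% of genes and all 4 members were called, each lower in D, from -0.88 (Nelfe) to -1.57 (Nelfb).

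The choice of scaling matters in these steps. The RLE factors moved the median log2 change of all genes by 0.44 from P to D, by 0.15 from D to RS and by 0.42 from P/D to D relative to TMM. The share of calls that were higher went from 51.4% to 64.7% for P to D and from 42.7% to 65.3% for P/D to D. From P to D the log2 changes of Nelfb, Nelfa, Nelfcd and Nelfe lay below the median of all genes, a distance that the scaling leaves about the same by construction. For Nelfe, the smallest of these changes, it was -0.48 against a median of 0.07 with TMM and -0.01 against 0.51 with RLE.

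Among SG, the undifferentiated and differentiating populations were compared within mice, a step in which 53% of genes were called. Nelfe was at 83.3, 90.5, 101 and 89.5 CPM in undifferentiated and at 158, 134, 151 and 144 in differentiating SG. Nelfb was at 59.3, 49.8, 50.6 and 50.8 against 82.6, 69.1, 70.1 and 79.4 CPM. Neither gene's ranges overlapped, and both were called higher in differentiating SG, Nelfe by 0.54 (SE 0.07, edgeR adjusted p = 0.000284) and Nelfb by 0.38 (SE 0.07, edgeR adjusted p = 0.00211). Nelfa was also called higher (0.28, SE 0.08, edgeR adjusted p = 0.0203), with means of 53.8 against 40.5 CPM. That call was lost with DESeq2 (adjusted p = 0.102), with no mouse term (edgeR adjusted p = 0.0552) and without Control 3 or Control 4. Nelfcd was not called (0.09, SE 0.09).

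In Sertoli, Leydig and interstitial cells all 4 members were called lower than in SG in the test over the 4 control mice. Nelfa in interstitial cells was at 26.9, 19.4, 47.7 and 36.1 CPM (16 or 17 UMIs a mouse), which overlapped the SG range, and in Control 3 it was at 103% of that mouse's SG level. Mean Nelfb was 23.0 ± 4.01 CPM in Sertoli cells, 24.4 ± 4.56 in Leydig cells, 37.7 ± 3.43 in interstitial cells and 28.0 ± 12.1 in immune cells (SD, n = 4). Sertoli cells nurse the germ cells inside the tubule, and Leydig cells make testosterone between tubules. The Nelfb values of these somatic cell types overlapped between mice in most pairs, whereas none reached the SG values. Of the 11 cell types with at least 2 control mice, Nelfe had its lowest mean in Leydig cells, 43.8 ± 11.1 CPM, and Nelfcd was at 17.6 ± 2.57 in Sertoli cells. Against SG, 63.1% of genes were called in Sertoli, 62.8% in Leydig and 55.8% in interstitial cells, and each member was called lower in each of these. The log2 differences were -1.58, -1.22 and -0.89 for Nelfb, -1.09, -0.80 and -0.75 for Nelfa, -1.68, -0.89 and -1.06 for Nelfcd and -1.04, -1.30 and -1.60 for Nelfe, in that order of cell types. RLE factors shifted the median of all genes up by 0.25, 0.31 and 0.49 in these comparisons, and the share of calls that were higher went from 39.7% to 49.9%, from 38.0% to 48.5% and from 35.9% to 54.6%. In interstitial cells the Nelfa and Nelfb calls were lost with RLE (-0.25 and -0.39), with DESeq2 and without Control 2 (-0.27 and -0.60), and that of Nelfa also without Control 1 (-0.47) and after subtraction of free RNA (-0.55).

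In the NELF-B cKO, Nelfb was the subunit gene that changed in germ cells, and the levels of the other 3 were not called different. SG and pL/L/Z were first pooled. Nelfb was at 74.3, 63.1, 63.0 and 68.2 CPM in the control mice and at 4.14 CPM (78 UMIs) and 4.99 CPM (101 UMIs) in the NELF-B cKO mice, and at 63.8, 60.5 and 60.2 CPM in the TDP-43 cKO mice. Both NELF-B cKO mice lay far below every control, at 6.80% of the control mean. The log2 change was -3.89 (SE 0.15, 95% interval -4.22 to -3.56, edgeR adjusted p = 1.1e-05). Of the 20000 genes tested, 3 were called, or 0.015%, the others being Gm16582 (3.69) and Fam163a (2.72), named after their values were seen. Nelfa changed by -0.14 (95% interval -0.35 to 0.07), Nelfcd by -0.03 (-0.23 to 0.18) and Nelfe by 0.01 (-0.20 to 0.22). None of these 3 had an unadjusted p under 0.05, and DESeq2, which called 707 genes in this comparison, called none of them. Leydig cell markers summed to 58.0 and 81.0 CPM in these germ cells of the NELF-B cKO mice against 13.7 to 25.3 in control mice, and their part in the result was not tested.

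Tardbp, the other targeted gene, was at 119, 95.9, 115 and 134 CPM in the control mice, at 93.5 and 95.7 CPM in both NELF-B cKO mice, and at only 34.3, 46.4 and 50.9 CPM after Tardbp deletion, in the same pooled cells. The 3 TDP-43 cKO values lay below all others. The change was -1.38 on the log2 scale and was not called in the pool (edgeR adjusted p = 0.0519), and it was -0.98 and called in SG (edgeR adjusted p = 0.00737). In SG alone Tardbp of the NELF-B cKO mice was at 67.3 and 70.5 CPM, within the control range of 64.7 to 71.6. In pL/L/Z it was at 124 and 161 CPM against 156 to 193, so the pooled values depend on the mix of the cell types.

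The decline of Nelfb was seen at every germ cell stage up to P that had enough cells in both NELF-B cKO mice. In undifferentiated SG the cKO values were 1.18 CPM (2 UMIs) and 7.66 CPM (47 UMIs), in differentiating SG 6.60 and 3.12 CPM, in pL/L/Z 1.99 and 4.75 CPM, and in P 3.40 CPM (3 UMIs) and 3.72 CPM (8 UMIs). All of them lay below all control values. The log2 changes were -3.15 (SE 0.31, edgeR adjusted p = 0.0104) in undifferentiated SG, where 0.0134% of genes were called, and -3.91 (SE 0.26, edgeR adjusted p = 0.00195) in differentiating SG, where 0.063% were called. They were -4.35 (SE 0.28, edgeR adjusted p = 0.000386) in pL/L/Z, with 0.00609% of genes called, and -3.31 (SE 0.30, edgeR adjusted p = 0.000334) in P, with 0.532% called. In pL/L/Z no call was higher with TMM and 50% of the calls were higher with RLE. The call in undifferentiated SG was lost without Control 3 (edgeR adjusted p = 0.0592) and without TDP-43 cKO 3 (edgeR adjusted p = 0.0519). The P cells of NELF-B cKO 1 were 77 cells with a median of 2596 UMIs, where the control medians were 28628 to 38351, and their RS markers summed to 293 CPM against 49.8 to 120 CPM.

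**Figure D2:**
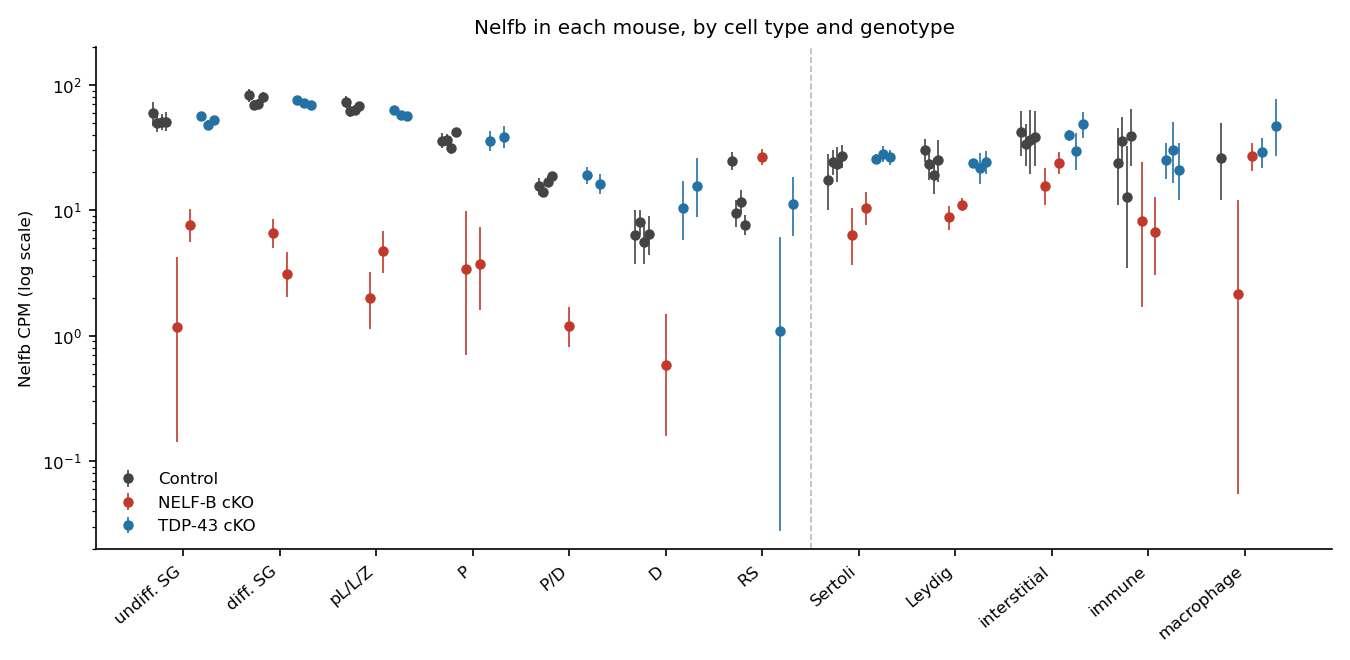
Nelfb in CPM on a log axis in 12 cell types, with 1 point per mouse coloured by genotype and bars for the 95% exact Poisson interval of its UMI count, which covers counting error only. NELF-B cKO mice lie below the controls in germ cells up to D, closer to them in somatic cells, and in RS the 1 NELF-B cKO mouse lies at 26.6 CPM, beside the highest control at 24.9.

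Nelfb in somatic cells, which keep the floxed allele, was lower in the NELF-B cKO mice by a smaller amount that edgeR did not call in the cell types compared. In macrophages, where 1 control mouse had at least 20 cells and no test was made, NELF-B cKO 2 was at 26.9 CPM (61 UMIs in 166 cells), level with the control at 26.3 (9 UMIs), and NELF-B cKO 1 at 2.15 CPM (1 UMI). In Sertoli cells it was at 17.4, 24.3, 23.4 and 26.9 CPM in control mice and at 6.37 CPM (16 UMIs) and 10.5 CPM (47 UMIs) in NELF-B cKO mice. In Leydig cells it was at 30.1, 23.4, 19.1 and 25.3 CPM against 8.77 (83 UMIs) and 11.1 (293 UMIs), and in interstitial cells at 42.0, 33.9, 36.5 and 38.4 against 15.6 and 24.0. Both NELF-B cKO mice were below all 4 controls in each, and the same held in all 8 cell types compared, where 8.50% of all pairs of a gene (mean of at least 5 CPM) and a cell type were lower in this way. With 4 against 2 mice the exact permutation test cannot give a two-sided p below 0.133, which is the value it gave. The cKO mean was 36.6% of the control mean in Sertoli cells, 40.6% in Leydig cells, 52.5% in interstitial cells and 26.7% in immune cells.

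The log2 changes were -1.41 (95% interval -2.02 to -0.80, edgeR adjusted p = 0.247) in Sertoli cells, -1.23 (-1.71 to -0.75, edgeR adjusted p = 0.319) in Leydig cells and -0.87 (-1.48 to -0.26, edgeR adjusted p = 0.922) in interstitial cells. edgeR called 0% of genes in each of these 3 comparisons. At an unadjusted p under 0.05 it had 896 genes higher and 410 lower in Sertoli cells, 662 and 643 in Leydig cells and 305 and 166 in interstitial cells, and Nelfb was among the lower ones in each. DESeq2 called Nelfb in Sertoli (adjusted p = 0.00311) and Leydig cells (adjusted p = 0.0029), among 60 and 36 genes, and called 0 genes in interstitial cells. Leydig markers summed to 130 and 486 CPM in the Sertoli cells of the NELF-B cKO mice against 18.3 to 47.3 CPM in control mice. The Nelfb level of the free RNA differed between the genotypes as well. Nelfb stood at 17.6 to 29.1 CPM in the free RNA of control mice and at 2.78 and 5.53 CPM in that of NELF-B cKO mice. After subtraction of the estimated free RNA the Nelfb differences were -1.31 in Sertoli, -1.22 in Leydig and -0.80 in interstitial cells. The part of the Leydig markers in the Sertoli value was not tested.

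Whether the Nelfb change differed between cell types was tested as an interaction, the change in a cell type minus the change in SG. In SG as a whole Nelfb was at 5.75 and 5.09 CPM in the NELF-B cKO mice, a change of -3.64 (SE 0.13), with 0.0268% of genes called. The change was smaller by 2.19 in Sertoli cells (95% interval 1.4 to 2.97, edgeR adjusted p = 0.00724), by 2.72 in Leydig cells (2.02 to 3.41, edgeR adjusted p = 3.11e-05) and by 2.92 in interstitial cells (2.16 to 3.69, edgeR adjusted p = 5.71e-05). In these 3 tests 0.223%, 1.25% and 0.0919% of genes were called, and none of the other members was. The Sertoli call was lost without Control 3 (edgeR adjusted p = 0.0643) and without NELF-B cKO 2 (1.60, edgeR adjusted p = 0.362), and the interstitial call without NELF-B cKO 2 (2.42, edgeR adjusted p = 0.0549). In the Leydig test the median of all genes was 0.29 with TMM and -0.05 with RLE factors, the higher share of calls went from 89.8% to 19.2%, and Nelfb was at 2.37 with RLE. In the interstitial test the median went from 0.17 to 0.05 and the higher share from 76.2% to 28.6%. In P the interaction for Nelfb was 0.10 (95% interval -1.05 to 1.24) and was not called, with 0.315% of genes called there and a median of all genes of -0.11 with TMM and 0.04 with RLE.

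None of the other 3 subunit genes was called by edgeR between NELF-B cKO and control mice in any cell type compared. In undifferentiated SG Nelfa was at 60.0 and 51.5 CPM in the NELF-B cKO mice against 43.1, 38.1, 37.9 and 42.8 in control mice (log2 0.44, 95% interval 0.19 to 0.70, edgeR adjusted p = 0.171). Nelfe was at 122 and 113 CPM there against 83.3, 90.5, 101 and 89.5 (0.34, 95% interval 0.13 to 0.56, edgeR adjusted p = 0.191). Both genes lay above all control values in undifferentiated SG, and Nelfa lay below them in differentiating SG (46.0 and 45.6 CPM) and in pL/L/Z (47.3 and 48.2 CPM). Over the 8 cell types with both NELF-B cKO mice, the NELF-B cKO values lay apart from the controls in 3 for Nelfa, 1 for Nelfcd and 2 for Nelfe. Among all pairs of a gene (mean of at least 5 CPM) and one of these cell types, 17.7% lay apart. In RS, with 1 NELF-B cKO mouse and no replicate, Nelfcd was at 48.1% of the control mean and below all controls.

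**Figure D3:**
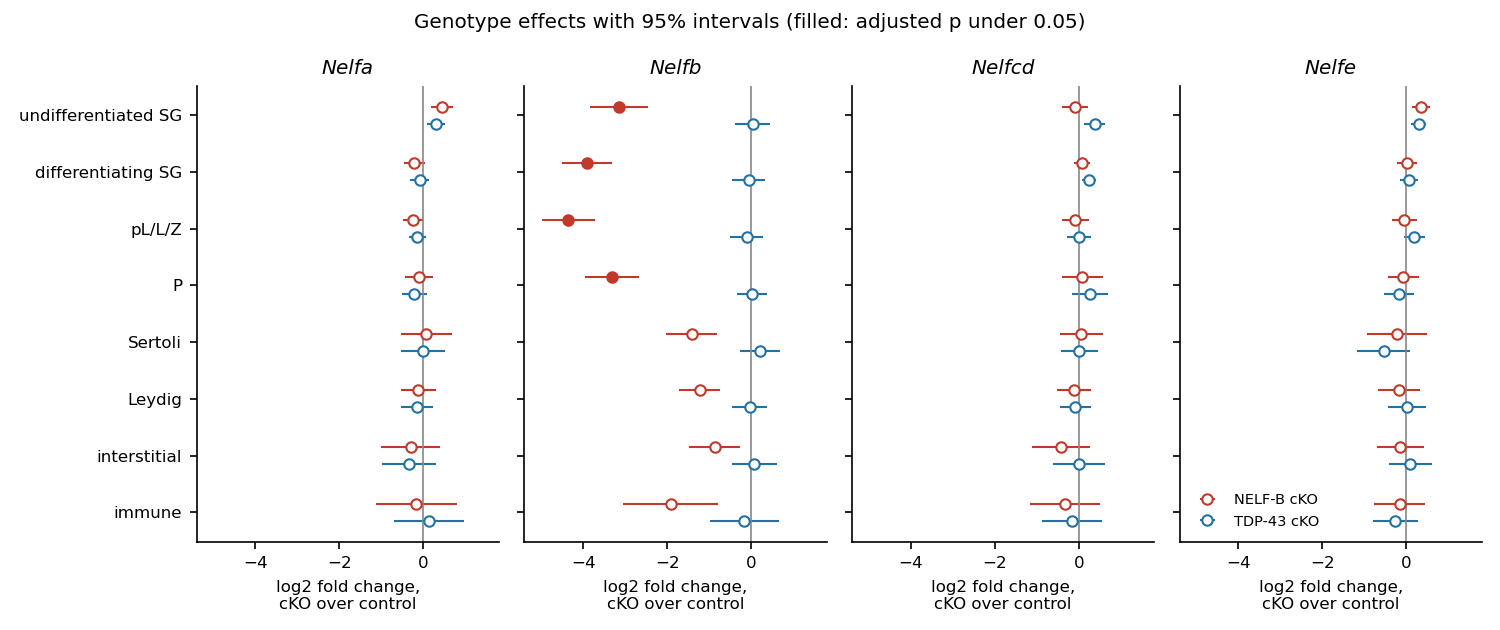
Log2 change of each member in cKO against control mice, with 95% intervals, in 8 cell types, with filled points for edgeR adjusted p under 0.05. Nelfb in the NELF-B cKO lies between -3.15 and -4.35 in germ cells and between -0.87 and -1.92 in somatic cells, and no point of another member is filled.

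At the level of single cells, 11.2% ± 0.469 (SD, n = 4) of control SG held a Nelfb UMI after each cell was thinned to 2000 UMIs, 155 of 1382 cells. In the NELF-B cKO mice 0.790% and 0.909% did, 9 of 1073 cells in all, and in the TDP-43 cKO mice the mean was 11.8%. The NELF-B cKO shares lay below all control shares, with an exact two-sided permutation p of 0.133, the smallest possible. Without thinning the shares were 71.9% in control and 5.92% in NELF-B cKO mice, at median depths per cell of 17344 to 24075 and 14196 to 28280 UMIs. In thinned Leydig cells, where a floxed allele is kept, the shares were 6.66% and 1.87%, so the SG share of the NELF-B cKO mice was below that of their own Leydig cells. Free RNA at its estimated share would bring 0.409 and 0.434 CPM of Nelfb into SG of the NELF-B cKO mice, where 5.75 and 5.09 CPM were measured, and a Nelfb UMI to 0.0818% and 0.0868% of SG thinned to 2000 UMIs. In control mice it would do so in 0.648% to 0.905% of SG.

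In RS, Nelfb of the 1 NELF-B cKO mouse that could be measured was not low. In NELF-B cKO 1, the only mouse of its group with at least 20 RS, Nelfb was at 26.6 CPM (95% Poisson interval 22.9 to 30.6, 189 UMIs in 323 cells), where the control mice were at 24.9, 9.54, 11.7 and 7.63 CPM. That is 198% of the control mean and slightly above the highest control, whose interval (21.1 to 29.3) it overlapped. In the same mouse Nelfb was at 1.20 CPM in P/D (31 UMIs) and at 0.58 CPM in D (4 UMIs), below all controls in both. The RS level was 462% of this mouse's SG level, where control RS had 11% to 32.9% of theirs. The SG level of this mouse was itself lowered, at 5.75 CPM against 63.4 to 75.6 in control mice. That lower level enters both this ratio and the interaction given next. The 9 RS of NELF-B cKO 2 held 12 Nelfb UMIs and entered no test. The interaction against SG was 4.95 (95% interval 4.18 to 5.72, edgeR adjusted p = 2.39e-11), with 0.0613% of genes and no other member called, and rests on 1 cKO mouse in RS. That mouse is assumed to vary like the other groups, since there is no spread between NELF-B cKO mice in RS. With TMM 42.9% of the calls in that test were higher and with RLE 55.6%.

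RS fell into 2 clusters, numbered 15 and 17, of which cluster 17 had higher Prm1 and Prm2, the protamines of late spermatids. The clusters also differed in depth, with control medians of 2491 to 4655 UMIs per cell in cluster 15 and 16416.5 to 42692 in cluster 17. The part of depth in their differences was not tested. In cluster 15 Nelfb was at 65.5, 36.8, 27.2 and 30.3 CPM in control mice. It was at 109 CPM there in NELF-B cKO 1 (95% exact binomial interval 86.2 to 136, 78 UMIs). In cluster 17 it was at 9.11, 7.53, 9.46 and 6.39 CPM in control mice and at 17.3 CPM (14.3 to 20.9, 111 UMIs) in NELF-B cKO 1. NELF-B cKO 1 was above all controls in both clusters, a comparison of 1 mouse with no test. The UMIs were spread over cells, with 44 of its 151 cluster 15 cells (29.1%) holding at least 1, at a median of 3395 UMIs per cell. In control mice 8.45% to 18.1% of cluster 15 cells did, at medians of 2491 to 4655 UMIs. In cluster 17 a Nelfb UMI was in 32.6% of the cells of NELF-B cKO 1, at a median of 29587.5 UMIs. That lay within the control range of 17.9% to 32.7%, whose lowest and highest values came from the shallowest and the deepest control. The other members were not higher there. Nelfa, at 15.4 and 7.66 CPM, lay within the control ranges in both clusters. Nelfcd was at 11.2 and 2.34 CPM in clusters 15 and 17 of NELF-B cKO 1 against 8.18 to 22.2 and 4.07 to 7.10 in control mice. Nelfe was at 54.5 and 184 CPM against 67.5 to 92.0 and 158 to 199. Nelfcd in cluster 17 and Nelfe in cluster 15 thus lay below the controls. RS markers summed to 2767 and 4727 CPM in the clusters of NELF-B cKO 1 and to 1623 to 2711 and 3812 to 4688 in those of control mice.

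Several measurements bear on these RS tags. The free RNA of NELF-B cKO 1 held Nelfb at 2.78 CPM, below its RS level. Clusters 0 and 2 had few UMIs per cell and no name, and their best match was the D marker list. They held Nelfb at 2.71 and 2.42 CPM in this mouse. Control mice with at least 20 cells were at 16.1 to 19.9 and 11.4 to 17.5 CPM. Control 2, with 3 and 11 cells there, is left out. The next gene upstream on the same strand is Stpg3 (ENSMUSG00000036770, chr2:25212207-25214637), with 717 bases between its end and the start of Nelfb. Stpg3 was at 85.8, 25.1, 97.5 and 69.6 CPM in control RS and at 57.5 CPM in RS of NELF-B cKO 1, within the control range. In cluster 15 it was at 47.5 CPM in NELF-B cKO 1, below all controls (116, 61.3, 125 and 96.8), and in cluster 17 at 58.6 CPM, within them (22.4 to 93.5). It was at 0.635 to 2.40 CPM in control SG. Tor4a, the next gene downstream on that strand, reached at most 0.141 CPM in RS. Which Nelfb transcript the RS tags come from cannot be read from counts per gene and was not tested, and whether introns were counted is not given in the sources used here.

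**Figure D4:**
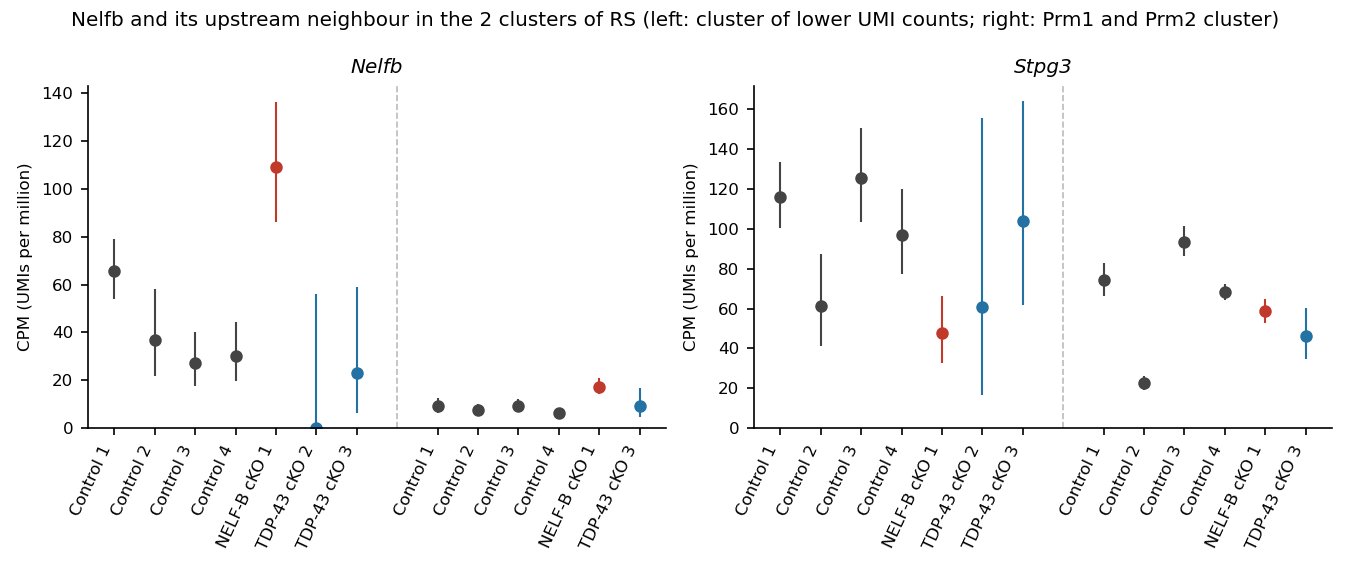
Nelfb and Stpg3 in CPM in the 2 RS clusters (cluster 15 left, cluster 17 right), with 1 point per mouse and bars for the 95% exact binomial interval. NELF-B cKO 1 lies above the 4 control mice for Nelfb in both clusters, at 109 and 17.3 CPM.

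In the TDP-43 cKO no subunit gene was called by edgeR in any of the 12 cell types compared or in SG and pL/L/Z together, where 0 of 20000 genes (0%) were called. In that pool edgeR had 1890 genes higher and 3186 lower at an unadjusted p under 0.05, with 1 member among them, Nelfcd (0.19, 95% interval 0.01 to 0.36), and DESeq2 called 656 genes higher and 2091 lower and no member. By cell type edgeR called 10.7% of genes in Sertoli cells, 4.95% in immune cells, 3.6% in pL/L/Z, 0.112% in P/D, 0.0228% in P, 0.0115% in differentiating SG and 0% in RS, Leydig, interstitial and myoid cells. In Sertoli cells the median depth per cell was 1985 to 2614 UMIs in control mice and 24545, 6930.5 and 19274 UMIs in TDP-43 cKO mice, and free RNA was estimated at 50% of their UMIs in TDP-43 cKO 1. The values overlapped the control range in 11 of 12 cell types for Nelfb, 7 for Nelfa, 9 for Nelfcd and 10 for Nelfe, where 21.3% of all pairs of gene and cell type lay apart. The exception for Nelfb was D, at 10.3 and 15.7 CPM in TDP-43 cKO mice against 5.57 to 8.05 in control mice (0.82, SE 0.34, edgeR adjusted p = 0.273), where 1.34% of genes were called.

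Nelfcd was somewhat higher in SG of the TDP-43 cKO mice, at 64.2, 63.7 and 62.5 CPM against 52.9, 52.7, 49.2 and 58.5 in control mice. The 3 values lay above all controls, and the exact permutation p was 0.0571, the smallest that 4 against 3 mice allow. The log2 difference was 0.30 (95% interval 0.13 to 0.47, edgeR adjusted p = 0.124), not called, with 0.00536% of genes called in SG. DESeq2 called it (adjusted p = 0.00584) among 8.38% of all genes, as did edgeR without NELF-B cKO 1 (adjusted p = 0.0407) among 7.89%, and the difference was 0.22 after subtraction of free RNA. In undifferentiated SG, 3 members lay above all controls, with 0 called by edgeR (0.0201% of all genes were) and all 3 at an unadjusted p under 0.05, as were 18.0% of all genes. DESeq2 called Nelfe there, among 6.99% of all genes, and Nelfcd in differentiating SG, among 7.36%. With no filter on low counts edgeR called Nelfcd and Nelfe in undifferentiated SG, among 4.73% of all genes. Nelfcd was at 60.9, 62.6 and 59.6 CPM (0.38, edgeR adjusted p = 0.0921), Nelfe at 115, 106 and 107 (0.30, edgeR adjusted p = 0.0771) and Nelfa at 47.5, 49.8 and 47.5 (0.30, edgeR adjusted p = 0.117). Other values went the opposite way. Nelfa lay below all controls in pL/L/Z at 48.1, 48.3 and 48.7 CPM (controls 54.0 to 60.2, log2 difference -0.14), in P at 68.6 and 60.9 (controls 71.6 to 78.1, -0.21) and in RS at 4.39 and 7.47 (controls 8.24 to 13.6, -0.86). Nelfe did so in Sertoli cells at 42.1, 47.6 and 50.4 CPM (controls 54.4 to 102, -0.54), where the depth per cell differed as given above and its part was not tested. Nelfa in P/D (55.0 and 51.2 CPM, controls 47.9 to 50.3) and Nelfcd in D (mean 20.1 ± 1.19 CPM, SD, n = 2, controls 12.3 to 16.7) lay above all controls. None of these was called or had an unadjusted p under 0.05. Free RNA made up 4.82% to 8.95% of UMIs in undifferentiated SG of these mice and 12.0% to 24.0% in control mice.

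The members were set beside 30 other genes of pausing and elongation, among them genes of DSIF, P-TEFb, the 7SK particle, the super elongation and PAF complexes and the cap-binding complex. In control mice 6 of the 30 rose and 17 fell from pL/L/Z to P (median log2 -0.41, all genes -0.31), where 25.2% of all genes rose and 36.7% fell. From P to D 8 rose and 18 fell (-0.47, all genes 0.07), against 34.4% and 32.5% of all genes. From D to RS 8 rose and 12 fell (-0.09, all genes 0.05), against 30.7% and 25.9%. From SG to pL/L/Z 6 rose and 10 fell (-0.03, all genes -0.06), against 24.1% and 30.7%. Compared with SG, 6 were higher and 14 lower in Sertoli cells (-0.18, all genes -0.23), against 25.1% and 38.1%, and 4 higher and 21 lower in Leydig cells (-0.74, all genes -0.33), against 23.8% and 38.9%. In interstitial cells 3 were higher and 20 lower (-0.82, all genes -0.43), against 20.0% and 35.7%. In SG and pL/L/Z of the NELF-B cKO mice edgeR called 0 of the 30, with a median of 0.07 (all genes -0.02), a range of -0.44 to 0.34, 5 genes at an unadjusted p under 0.05 (14.4% of all genes were) and 1 call by DESeq2, which called 3.54% of all genes. In the TDP-43 cKO mice edgeR also called 0, with a median of -0.02 (all genes 0.01), 2 at an unadjusted p under 0.05 (25.4% of all genes were) and 1 call by DESeq2, which called 13.8%. By cell type, edgeR called 1 of 29 tested lower in Sertoli cells of the TDP-43 cKO mice, where 10.7% of all genes were called. It called 1 of 25 lower in their immune cells, where 4.95% were.

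Across 11 cell types of the control mice, profiles of log2(CPM + 1) were compared between genes by Pearson's r. The cell types share libraries, so r is a description. Nelfa and Nelfcd were the most alike of the members (r = 0.86), followed by Nelfb and Nelfcd (0.83) and Nelfa and Nelfb (0.54). Nelfe was apart, with 0.37 to Nelfa, 0.06 to Nelfcd and -0.06 to Nelfb. Among 13886 genes, those nearest to Nelfa were Micu3 (0.97), Emsy (0.97) and Fam20b (0.96), and those nearest to Nelfb were Cpne1, Rnf170 and Gnl3 (0.96 each). Nearest to Nelfcd were Zfp652 (0.98), Api5 (0.97) and Arhgef11 (0.97), and nearest to Nelfe Zfp821 (0.97), Zc3h14 (0.96) and Abcf2 (0.96). For Nelfa, 238 genes were closer than Nelfcd, and for Nelfb 600 were.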

How the data were processed

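Single-cell RNA-seq (10x, 3′ ends, UMIs) was available for 9 whole testes. The deposited matrices hold raw UMI counts for each gene in each barcode. The authors demultiplexed the reads using Cell Ranger 6.1.1, mapped and counted them on mm10 using Cell Ranger 7.0.0, and analysed the counts using Seurat 4.2.0 and DESeq2 1.36. The matrix headers name another Cell Ranger version. Whether intron reads were counted is not given in the sources used here.

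From the counts, barcodes with at least 1000 genes and at most 10% mitochondrial UMIs were kept, with genes found in more than 15 barcodes. Cells were clustered with scanpy 1.11.5 and leidenalg 0.10.2 (3000 variable genes, 40 components, 20 neighbours, resolution 0.8). The members, the pausing genes and Tardbp were barred from the clustering genes, and 0 of them were among the variable genes. Clusters were named from marker lists, and clusters with a median under 2000 UMIs or over 80% of cells from 1 mouse stayed unnamed, limits set after the clusters were seen. No doublet caller was run. UMIs were summed per mouse and cell type (at least 20 cells) and tested over all genes with edgeR 4.0.16 in R 4.3.3 (filterByExpr, TMM, quasi-likelihood F test, Benjamini-Hochberg adjusted p under 0.05, no fold limit), the 3 genotypes in 1 fit. Stage comparisons used the control mice and the interaction used the control and NELF-B cKO mice, both with mouse as a block. p-values measure the spread between these mice. DESeq2 1.42.0, RLE factors, no filter, each mouse left out, a replicate block, removal of germ cells in which the targeted gene had a UMI, free RNA subtraction, resolution 1.4 and an adjusted p under 0.01 with a log2 change of at least 1 were alternatives. The fits were tested on simulated data. Intervals of single counts are exact Poisson intervals, or exact binomial intervals for the separate RS clusters, and cover counting error only.

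The members and gene lists were chosen with earlier results of these data known. The text names the 4 members, Tardbp and the 3 genes whose control profile was most like each member's (mean log2(CPM + 1) over cell types, genes of at least 20 CPM in 1 or more). Genes of the pausing list called by edgeR in SG and pL/L/Z of a cKO would have been named as well. Gm16582, Fam163a, Stpg3, Tor4a, Prm1 and Prm2 fall outside this rule and were named after values were seen. Whether the replicate numbers pair the mice is not given by the labels. The correlation of same-numbered mice ran from -0.50 to 0.38 over 7 pairs, with 2 above 0.1. Over 19 pairs of different numbers it ran from -0.38 to 0.50, with 7 above 0.1. Control 1 and Control 2 were at 0.38 and 0.35 with the NELF-B cKO mouse of their number. Values were centred within a genotype, so the 2 NELF-B cKO mice mirror each other and the correlations cannot decide the pairing.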

Additional observations from a re-analysis of the deposited data

Results flagged for a closer look

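In groups of 4 control mice, 4 values lay farther from the other 3 than Dixon's limit allows, out of 52 groups examined, and chance alone gives about 1 in 20. They were Nelfb in undifferentiated SG of Control 1 (59.3 CPM), Nelfcd in differentiating SG of Control 4 (59.5 CPM), Nelfcd in pL/L/Z of Control 2 (48.0 CPM) and Nelfcd in D of Control 4 (16.7 CPM).

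The change of Nelfb in the NELF-B cKO differed from that in SG by 2.19 in Sertoli, 2.72 in Leydig and 2.92 in interstitial cells on the log2 scale, by the interaction test given above. The difference in RS was 4.95, with 1 NELF-B cKO mouse and so no spread between NELF-B cKO mice, and it is not a replicated difference.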

How the results depend on the processing

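In SG and pL/L/Z of the NELF-B cKO, 1 member, Nelfb, was called in each alternative but removal of germ cells with a Nelfb UMI from cKO and control mice, which gives 0 because it takes every Nelfb UMI out. Removal from the cKO mice alone sets their Nelfb to 0 and so fixes the call, and is no support for it. By cell type, Nelfb was called in 4 types. The replicate block gave 1, the removal in both groups 0 and DESeq2 6. Fits that left out 1 mouse also took in cell types with 1 NELF-B cKO mouse, so their counts are not comparable. Among the 4 types, the call in undifferentiated SG was lost without Control 3 and without TDP-43 cKO 3. With the block the adjusted p of Nelfb was 0.421 in undifferentiated SG, 0.114 in differentiating SG and 0.0962 in pL/L/Z (edgeR). The log2 changes with the block were -3.23, -3.97 and -4.38. Whether same-numbered mice belong together is not known, and the correlations given above cannot decide it. In control mice the 26 stage calls ranged from 22 to 27 over 6 alternatives, with 25 with no replicate block (no mouse term), and from 24 to 25 without 1 mouse. In the TDP-43 cKO by cell type, 0 calls became 2 with DESeq2 and 2 with no filter on low counts. The 4 interaction calls, of which the RS call has no spread between NELF-B cKO mice, ranged from 2 to 4 when 1 mouse was left out. The share of SG with a Nelfb UMI was 23.2% in control and 1.06% in NELF-B cKO mice at 4000 UMIs and 71.9% and 5.92% with no thinning. Of the pausing list, DESeq2 called 1 in the NELF-B cKO and 1 in the TDP-43 cKO against 0 by edgeR. Leaving out 1 mouse gave 0 to 2 in the TDP-43 cKO, with 1 without NELF-B cKO 1 and 2 without NELF-B cKO 2. Over all genes in SG and pL/L/Z, edgeR called 3 and DESeq2 707 in the NELF-B cKO, and 0 and 2747 in the TDP-43 cKO. No called result changed direction. Of the recomputed values 2023 stayed on their side of the threshold, 27 fell short of it, 12 newly passed it and 14 counts or shares moved. The cause of these differences was not tested. Depth limits several cell types, where NELF-B cKO values rest on few Nelfb UMIs in a mouse, such as 2 in undifferentiated SG, 3 in P, 3 in immune cells, 1 in macrophages and 4 in D.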
